A study of Homo sapiens with 15 samples.

Results

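The transcriptome of SCC25, an oral squamous carcinoma line, was compared with that of OKF6, a normal oral epithelial line, using the 6 of 15 libraries in the series that hold these lines without gene deletion. Members were taken from the labels as the 3 SCC25 libraries grown without doxycycline and the 3 OKF6 libraries, and every one of the 12995 genes in the table of cell lines was compared. OKF6 cells were labelled wild type. SCC25 cells were also labelled wild type, but by their titles and the study's methods they carried the lentiviral Cas9 and inducible YBX1 guide constructs, had been sorted for GFP and mCherry and expanded, and were not given the doxycycline that induces the deletion. Whether OKF6 was transduced or sorted is not given in the sources used here, and any part of these steps in a difference cannot be told apart from the line. Both lines were grown in keratinocyte serum-free medium with pituitary extract, EGF and calcium chloride, and both carry the time label 3 days. Each group is 1 cell line, so the 3 libraries measure the spread between samples of that line, which may be technical, and not the spread between tumours or donors.

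Oral epithelium is a stratified squamous tissue. Its basal keratinocytes express the keratin pair KRT5 and KRT14 and the transcription factor p63, are joined by desmosomes and anchored by hemidesmosomes, and on leaving the basal layer build a cornified envelope from small proline-rich proteins, involucrin and other substrates of transglutaminases. Squamous carcinomas of the mouth often carry loss of the CDKN2A locus on chromosome arm 9p and gain of the CCND1 region on 11q, and may take up mesenchymal features such as vimentin and N-cadherin. HOX genes, which lie in 4 clusters and are used in order along the body axis, mark positional identity.

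The libraries held 4075290 to 6118501 reads on genes in OKF6 and 5291503 to 6090488 in SCC25. Values are log2 CPM, reads scaled to the size of the library, from 3' ends, so the level of a gene does not scale with its length. The OKF6 libraries differed from each other more than the SCC25 libraries did, with a median absolute log2 difference between library pairs of 0.465 to 0.750 in OKF6 and 0.258 to 0.271 in SCC25. OKF6 replicate 1 stood apart from the other OKF6 libraries. The difference between the lines also moved with base composition: from the lowest to the highest of 5 equal bins of genes by GC content of the last 500 transcript bases, the median difference went from -0.32 to 0.60, genes called higher in SCC25 from 7.74% to 31.7%, and genes called lower from 21.2% to 3.36%. Genes were also fitted with the GC trend removed and, separately, without OKF6 replicate 1. These fits show which calls moved, and the cause of a move was not tested. Counts over gene lists are therefore also given after the GC trend was removed from each library and without OKF6 replicate 1, where these change the picture.

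To ask how the cancer line differs from normal oral epithelium, SCC25 was set against OKF6 in a limma fit, with genes called at a Benjamini-Hochberg adjusted p under 0.05. The SCC15 libraries were also in this fit and shared its estimate of the spread. Of the 12995 genes, 3923 were called (30.2%), of which 2450 were higher in SCC25 (18.9%) and 1473 lower (11.3%). The difference passed 4-fold for 1135 of the higher and 408 of the lower genes. Libraries of the lines did not overlap for 5632 of all genes (43.3%) and for 3846 of the called genes. The split between directions moved with the scaling: quantile normalization called 2006 higher and 1837 lower, and removal of the GC trend 1945 higher and 1556 lower. Without OKF6 replicate 1, 3278 genes were called higher and 2053 lower. In a fit of only the 6 libraries of SCC25 and OKF6, 3168 genes were called, 2005 higher and 1163 lower.

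Among well expressed genes whose libraries did not overlap between the lines, NFIX, a nuclear factor I transcription factor, had the largest rise. Its log2 CPM values were 3.67, 2.14 and 2.05 in OKF6 and 8.60, 8.81 and 9.41 in SCC25, a difference of 6.32 ± 0.41, adjusted p = 5.15e-06 (SE, here and throughout). The LIM-domain gene CRIP1 (5.37), the filamin regulator RFLNB (5.33), the mitochondrial CHCHD10 (4.88), the prostaglandin synthase PTGS1 (4.57), the IGF-binding protein IGFBP4 (4.33) and the amino acid transporter SLC7A8 (4.17) followed, together with SLC15A3 (4.32), FGF11 (3.99), creatine kinase CKB (3.99), IL32 (3.81) and BAIAP2L2 (3.77). Of the IL32 3' end, 38.9% of 75-base pieces aligned equally well elsewhere in the genome, so its reads may be shared. The largest falls were in SPRR2A (-5.53), the cytokine CSF3 (-5.32), the microfibril protein MFAP5 (-5.11), the membrane protein STOM (-4.96), the protease inhibitor SERPINB2 (-4.62), SPRR2E (-4.30), SPRR2D (-4.23), IGFL1 (-3.78), the D-type cyclin CCND2 (-3.60), the kallikrein KLK10 (-3.56), GADD45A (-3.36) and the protease inhibitor SPINK5 (-3.25). All of these genes passed the test in each of the 6 leave-one-out fits, which drop 1 library at a time.

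Both lines expressed the basal keratin pair and p63. The list of 22 oral keratinocyte markers, all measured, includes the simple-epithelial keratins KRT8, KRT18 and KRT19. Of the 22, 2 were called higher in SCC25 (9.09% against 18.9% of all genes) and 3 lower (13.6% against 11.3%). Their median difference was -0.90 against 0.13 over all genes. Their summed level ran from 33304 to 45201 CPM in OKF6 and from 17038 to 28996 CPM in SCC25. KRT5 stood at log2 CPM values of 12.52, 13.13 and 13.40 in OKF6 and 12.32, 12.06 and 11.40 in SCC25 and KRT14 at 10.24, 11.42 and 11.95 in OKF6 and 11.33, 11.18 and 9.96 in SCC25, and neither passed the test (adjusted p = 0.344 and 0.664). TP63, the gene of p63, was at 7.50, 6.70 and 6.68 in OKF6 and 7.64, 7.16 and 6.63 in SCC25 and its groups overlapped (adjusted p = 0.797). The 2 members called higher were the simple-epithelial keratin pair KRT8 and KRT18. KRT8 was at 1.57, 3.12 and 3.53 in OKF6 and 5.54, 6.16 and 5.42 in SCC25, a difference of 2.97 ± 0.56, adjusted p = 0.00281, and its partner KRT18 differed by 1.15 ± 0.18, adjusted p = 0.000961. After removal of the GC trend KRT18 no longer passed (adjusted p = 0.0703). KRT15 fell by 1.73 and the p63 target PERP by 0.99. E-cadherin, CDH1, was at 8.31, 8.58 and 8.69 in OKF6 and 7.24, 6.81 and 6.93 in SCC25, with no overlap between the lines, and its difference of -1.53 ± 0.62, adjusted p = 0.0873 missed the threshold. In the fit of the 2 lines alone it passed (adjusted p = 0.00171), and the SD of CDH1 among the SCC15 libraries, which share the spread in the fit of all lines, was 1.65 against 0.20 in OKF6. KRT19, another simple-epithelial keratin, differed by -1.01 and likewise missed the threshold in the fit of all lines (adjusted p = 0.335). It passed in the fit of the 2 lines (adjusted p = 0.0352). More calls moved the other way: of 203 named genes followed, 2 gained a call in the fit of the 2 lines and 7 lost it. The genes that lost it included DSP (adjusted p = 0.0538), IFI6 (0.0607), ID1 (0.0632), HOXC4 (0.0937) and GET1 (0.108).

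Genes of squamous differentiation were called lower in SCC25 more often than higher. Of 51 measured members of the squamous differentiation and cornified envelope list, 20 were called lower and 2 higher, 39.2% against 11.3% of all genes for the lower calls, with a median difference of -1.69. The count of lower calls ran from 13, without SCC25 replicate 3, to 23, without OKF6 replicate 1, and was 24 after removal of the GC trend, and 5 members were higher without OKF6 replicate 3. SPRR2A, a small proline-rich envelope precursor, had 411, 961 and 2719 reads in OKF6 and 35, 27 and 10 reads in SCC25 (-5.53 ± 0.84, adjusted p = 0.000827). Its neighbour SPRR2D had log2 CPM values of 6.31, 7.64 and 8.25 in OKF6 and 3.99, 4.16 and 1.38 in SCC25. Every OKF6 library lay above every SCC25 library for both genes, and OKF6 replicate 1 was the lowest of its group. Reads of the SPRR2 genes may be split between near-identical copies, and 11.8% of the 3' end pieces of SPRR2A and of SPRR2D aligned equally well elsewhere. SCEL, the envelope protein sciellin, had 77, 51 and 280 reads in OKF6 and 4, 1 and 1 reads in SCC25, 66.3-fold (95% counting interval 30.2 to 182) lower, and the lipid transporter ABCA12, needed for the epidermal barrier, was at log2 CPM values of 5.00, 4.99 and 4.99 in OKF6 and 1.11, 0.56 and 0.98 in SCC25 (-4.11 ± 0.80, adjusted p = 0.00337). Among members that encode transcription factors, GRHL3 had 35, 39 and 52 reads in OKF6 and 2, 10 and 5 reads in SCC25 and ZNF750 had 15, 10 and 64 reads in OKF6 and 5, 6 and 0 reads in SCC25, and both were called lower, ZNF750 in 4 of the 6 leave-one-out fits. The crosslinking enzyme TGM1 (-3.69), periplakin PPL (-2.94), SPRR1B (-2.92), the kallikrein KLK7 (-2.84), SERPINB13 (-3.91) and keratin KRT4 (-2.38) were also called lower. Involucrin, IVL, was at 2.45, 3.99 and 6.35 in OKF6 and 2.70, 1.94 and 0.19 in SCC25, and its difference of -2.65 ± 0.99, adjusted p = 0.0664 did not pass. The 2 members called higher were the ammonium transporter RHCG, with 1, 2 and 12 reads in OKF6 and 126, 47 and 18 reads in SCC25, and the airway protease TMPRSS11D, with 0, 0 and 6 reads in OKF6 and 33, 17 and 10 reads in SCC25.

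Of 11 measured desmosome genes 6 were called lower (54.5% against 11.3% of all genes) and 0 higher (against 18.9%). The desmosomal cadherins DSG3 (-2.84 ± 0.55, adjusted p = 0.00329), DSC2 (-1.66) and DSC3 (-1.22), plakophilin PKP2 (-1.66), desmoplakin DSP (-0.90) and PERP made up the 6. DSG3 was at log2 CPM values of 6.44, 6.84 and 7.52 in OKF6 and 4.64, 4.25 and 3.39 in SCC25. Plakoglobin JUP (0.41, adjusted p = 0.302) and PKP1 (-0.092, adjusted p = 0.942) were not called. Of 12 hemidesmosome and laminin-332 genes 4 were lower (33.3% against 11.3% of all genes), among them the laminin chain LAMA3 (-1.85), dystonin DST (-1.70) and integrin ITGA6 (-0.87). The laminin chain LAMB3 (-0.13, adjusted p = 0.911) was not called. The integrin ITGA3 was the 1 member called higher (0.94 ± 0.28, adjusted p = 0.0297). It was called in 1 of the 6 leave-one-out fits, and not after removal of the GC trend (adjusted p = 0.475).

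**Figure D1:**
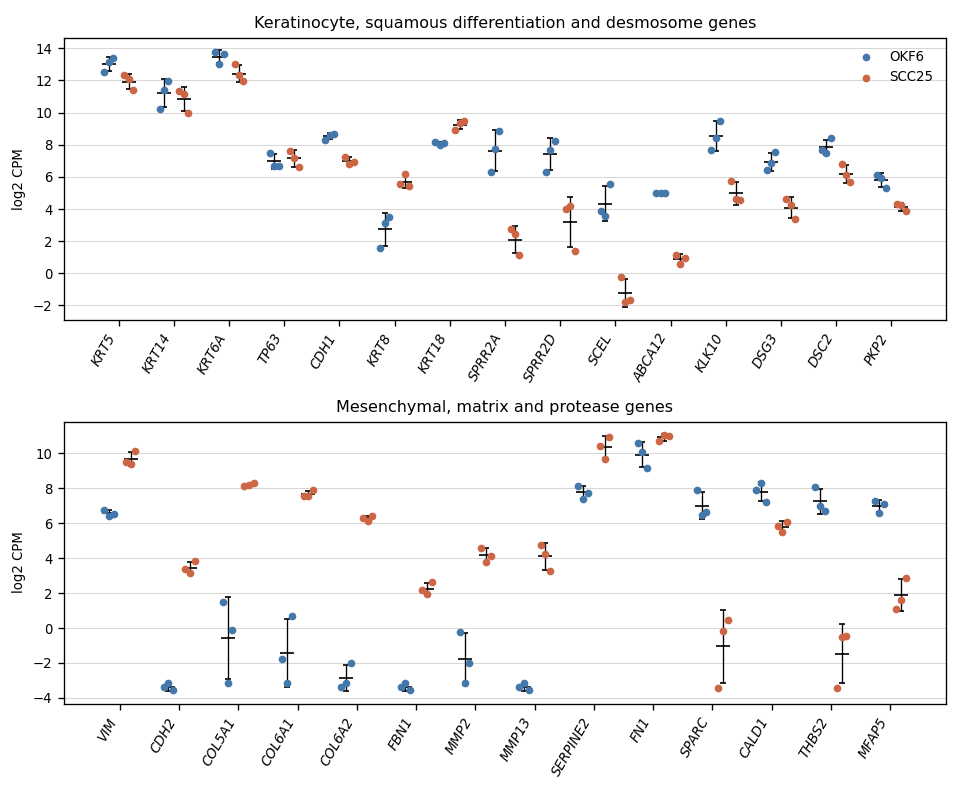
Log2 CPM of each library (points) with group mean and SD (black) for keratinocyte, squamous differentiation and desmosome genes (top) and mesenchymal, matrix and protease genes (bottom) in OKF6 (blue) and SCC25 (orange). KRT14 and TP63 overlap between the lines, and SPRR2A, SCEL and DSG3 lie lower in SCC25. In the bottom panel VIM, CDH2 and COL6A1 lie higher in SCC25, and SPARC, CALD1, THBS2 and MFAP5 lie lower.

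Genes of the mesenchymal marker list were called higher in SCC25 more often than lower. Of 31 measured mesenchymal markers 13 were called higher (41.9% against 18.9% of all genes) and 3 lower, with a median difference of 1.17, and 13 and 3 after removal of the GC trend. Vimentin, VIM, was at log2 CPM values of 6.75, 6.41 and 6.55 in OKF6 and 9.50, 9.41 and 10.12 in SCC25 (3.10 ± 0.21, adjusted p = 6.6e-06). N-cadherin, CDH2, had 0, 0 and 0 reads in OKF6 and 55, 44 and 68 reads in SCC25, at least 18.6-fold higher against a floor of 3 reads per library. The collagen VI chain COL6A1 had 1, 0 and 9 reads in OKF6 and 1015, 946 and 1151 reads in SCC25, and COL6A2 had 0, 0 and 1 reads in OKF6 and 411, 357 and 410 reads in SCC25, 1207-fold (95% counting interval 216 to 47727) higher in SCC25. CDH2, COL6A1 and COL6A2 had at most 9 reads in any OKF6 library. COL5A1, a collagen V chain, had 14, 0 and 5 reads in OKF6 and 1516, 1455 and 1497 reads in SCC25, and the fibrillin FBN1 0, 0 and 0 reads in OKF6 and 24, 19 and 29 reads in SCC25. The repressors SNAI1 (4, 0 and 0 reads in OKF6 and 20, 5 and 7 reads in SCC25) and ZEB1 (1, 0 and 0 reads in OKF6 and 8, 7 and 8 reads in SCC25) were called higher from few reads, SNAI1 in 3 of the 6 leave-one-out fits. Fibronectin, FN1, was at 10.60, 10.05 and 9.14 in OKF6 and 10.71, 11.05 and 10.97 in SCC25 and did not pass (adjusted p = 0.0663). The 3 members called lower were led by SPARC, a secreted collagen-binding protein, which had 1255, 390 and 597 reads in OKF6 and 0, 4 and 6 reads in SCC25, followed by caldesmon CALD1 (-1.99 ± 0.29, adjusted p = 0.000625) and LOXL2, the last in 3 of the 6 leave-one-out fits. The list thus held genes of both directions. Outside this list, the collagen COL7A1 was called lower (-1.83 ± 0.54, adjusted p = 0.0263), in 2 of the 6 leave-one-out fits. The matrix genes THBS2 and MFAP5 were lower as well. Of 10 fibroblast markers only COL1A1 and LUM were measured, and the summed level of these ran from 29.1 to 44.5 CPM in OKF6 and from 21.9 to 97.9 CPM in SCC25, with LUM, a defining marker, at 0 or 1 reads in every library. Of 11 immune cell markers only CD14 and CD68 were measured, and neither was called. Of 7 endothelial markers only ERG was measured, at 0 to 6 reads in OKF6 and 17 to 22 in SCC25, and it was called higher. Of 10 melanocyte and Merkel cell markers 3 were measured and none was called.

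Among matrix proteases and their inhibitors, 10 of 36 measured members were higher (27.8% against 18.9% of all genes) and 6 lower (16.7% against 11.3%), and 7 and 7 after removal of the GC trend. The collagenase MMP13 had 0, 0 and 0 reads in OKF6 and 144, 97 and 46 reads in SCC25, at least 29.3-fold higher, and the gelatinase MMP2 had 4, 0 and 1 reads in OKF6 and 128, 70 and 84 reads in SCC25. Stromelysin MMP3 had 0, 6 and 1 reads in OKF6 and 38, 18 and 20 reads in SCC25. The protease nexin SERPINE2 (2.57 ± 0.31, adjusted p = 0.000203) and the metalloproteinase inhibitor TIMP2 (1.81 ± 0.28, adjusted p = 0.000968) rose as well. SERPINB2, the inhibitor of urokinase, was at 9.61, 8.44 and 9.55 in OKF6 and 4.43, 4.73 and 4.56 in SCC25 and fell by 4.62, while urokinase itself, PLAU, was not called (0.17, adjusted p = 0.847).

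Regulators of regional identity were called higher more often than lower, as were genes as a whole. Of 51 measured factors of oral and tongue epithelial patterning 19 were called higher (37.3% against 18.9% of all genes) and 4 lower (7.84% against 11.3%). The list includes HOX genes, among them HOXD10 and HOXD11, so part of its higher calls are the HOX genes described below. Their median difference was 0.83, or 0.36 with genes near 0 reads in a line set at the bound of 3 reads. The cardiac and pharyngeal homeobox gene NKX2-5 had 0, 0 and 0 reads in OKF6 and 166, 152 and 137 reads in SCC25 (at least 51.1-fold higher), SIX2, a craniofacial and kidney progenitor factor, 0, 0 and 0 reads in OKF6 and 167, 140 and 117 reads in SCC25 (at least 47.3-fold), and TBX1, a pharyngeal arch factor, 0, 0 and 2 reads in OKF6 and 103, 117 and 114 reads in SCC25. In the same direction, EN1, a midbrain and limb homeobox gene from outside this list, had 1, 0 and 1 reads in OKF6 and 306, 281 and 355 reads in SCC25. FOXE1, the thyroid and palate forkhead factor, had 18, 0 and 1 reads in OKF6 and 169, 190 and 194 reads in SCC25, with nearly all OKF6 reads in replicate 1. BARX2, an oral epithelial homeobox gene, fell (-3.05 ± 0.37, adjusted p = 0.000188), as did TFAP2A, which encodes a regulator of surface ectoderm (-1.32 ± 0.25, adjusted p = 0.00278). PITX1, an oral ectoderm factor, was at 7.69, 7.86 and 8.64 in OKF6 and 7.74, 7.61 and 7.49 in SCC25 and was not called (adjusted p = 0.182).

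The HOX genes split by their place in the clusters, a pattern chosen for description after the values were seen. Of the 33 HOX genes described, 16 were called higher and 5 lower, where 18.9% and 11.3% of all genes were. The 9 genes of paralogue groups 1 to 4, which lie at the 3' side of each cluster and act in the head and neck region, gave 0 higher and 5 lower. The 14 genes of groups 9 to 13, which act in the trunk and limbs, gave 12 higher and 0 lower, and the 10 genes in between gave 4 and 0. HOXA2 and HOXA3 fell by 3.23 and 2.34. HOXB2 (-3.42 ± 0.48, adjusted p = 0.000489) and HOXC4 (-0.84 ± 0.27, adjusted p = 0.0402, called in 2 of the 6 leave-one-out fits) fell too, and HOXB4 had 65, 49 and 68 reads in OKF6 and 3, 2 and 1 reads in SCC25. In the same HOXA cluster, HOXA7 had 1, 0 and 0 reads in OKF6 and 66, 58 and 92 reads in SCC25, HOXA9 0, 0 and 2 reads in OKF6 and 73, 73 and 58 reads in SCC25 and HOXA10 0, 0 and 0 reads in OKF6 and 20, 14 and 22 reads in SCC25. In the HOXD cluster the genes called were higher and none was lower, with HOXD3, HOXD4 and HOXD8 not called. HOXD9 had 0, 0 and 0 reads in OKF6 and 87, 94 and 64 reads in SCC25, HOXD10 0, 0 and 2 reads in OKF6 and 325, 281 and 286 reads in SCC25 and HOXD11 2, 0 and 3 reads in OKF6 and 257, 374 and 338 reads in SCC25. All 3 were at 3 reads or fewer in each OKF6 library. The 3' end of HOXD11 lies within HOXD10 on the same strand, so reads there may be shared. The 3' end of HOXB4 likewise lies within HOXB3. HOXB3 (-0.42, adjusted p = 0.536) and the antisense transcript HOTAIRM1, in the HOXA cluster (-0.023, adjusted p = 0.955), were not called. In the SCC25 libraries with YBX1 deleted, HOXD10 had 340, 350 and 303 reads and HOXA9 had 75, 112 and 60.

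**Figure D2:**
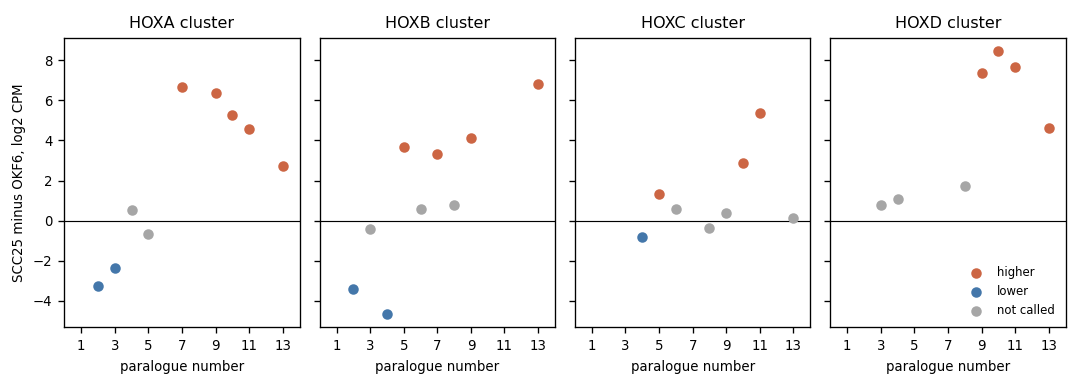
Difference between SCC25 and OKF6 in log2 CPM for the 33 HOX genes described, by cluster and paralogue number, colored by call. Groups 1 to 4 hold 5 lower and 0 higher genes and groups 9 to 13 hold 12 higher and 0 lower. Points of genes near 0 reads in a line depend on the 0.5 reads added before the logarithm.

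Neighbouring genes on 3 chromosome arms moved together. These stretches were chosen with the values known, and DNA copy number was not measured here. On 11q13 (chromosome 11), 12 of 17 measured genes of the list for this region were called higher (70.6% against 18.9% of all genes) and 0 lower. Their median difference was 2.19, and 11 were higher and 0 lower after removal of the GC trend. CCND1, cyclin D1 (hg38, 11:69641156-69654474), was at log2 CPM values of 6.65, 6.42 and 7.07 in OKF6 and 9.58, 9.49 and 10.05 in SCC25 (2.99 ± 0.38, adjusted p = 0.000269). The death-domain adaptor FADD was at 6.55, 5.89 and 5.81 in OKF6 and 9.18, 9.18 and 9.40 in SCC25 (3.17 ± 0.22, adjusted p = 6.85e-06), and CTTN, the gene of cortactin, at 9.32, 8.45 and 8.77 in OKF6 and 11.23, 11.08 and 11.15 in SCC25 (2.31 ± 0.25, adjusted p = 7.87e-05). Libraries of the lines did not overlap for any of these 3, as for 43.3% of all genes. LTO1, which lies opposite to CCND1 over its 3' end, and TPCN2, ANO1 and PPFIA1 rose by 2.62, 2.67, 2.47 and 1.98. Towards the centromere GAL, the neuropeptide galanin, had 0, 0 and 3 reads in OKF6 and 385, 336 and 348 reads in SCC25, but its neighbour TESMIN was not called (0.085, adjusted p = 0.883). A second stretch further along the arm, from RNF121 to STARD10 (11:71929018-72794047), held 12 measured genes, of which 11 were called higher, with a median of 2.44. It includes LAMTOR1, a subunit of the Ragulator complex that anchors mTORC1 to lysosomes (2.48 ± 0.33, adjusted p = 0.000329), and INPPL1, the inositol phosphatase SHIP2 (2.47 ± 0.36, adjusted p = 0.000691).

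On 9p21 (chromosome 9), CDKN2A, which encodes p16INK4a and p14ARF (9:21967752-21995301), had 1258, 685 and 779 reads in OKF6 and 0, 4 and 3 reads in SCC25, 379-fold (95% counting interval 184 to 945) lower. MTAP, its neighbour and an enzyme of methionine salvage, was lower but expressed, at log2 CPM values of 6.37, 6.37 and 6.45 in OKF6 and 4.39, 4.26 and 4.90 in SCC25 (-1.88 ± 0.23, adjusted p = 0.000211). CDKN2B, which encodes p15INK4b, was at 5.63, 5.84 and 4.98 in OKF6 and 4.84, 4.71 and 4.37 in SCC25 and did not pass (-0.85 ± 0.32, adjusted p = 0.0718). DMRTA1 had 22, 35 and 20 reads in OKF6 and 3, 3 and 0 reads in SCC25 and ELAVL2 fell by 1.29. Reads of CDKN2A were 1, 1 and 0 in the libraries of SCC25 with YBX1 deleted.

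On 21q22 (chromosome 21), 8 genes in a row, between 40010999 and 42297244 of hg38, had at most 1 read in any SCC25 library and were read in every OKF6 library. DSCAM, a neural adhesion molecule, had 37, 49 and 104 reads in OKF6 and 0, 0 and 0 reads in SCC25. BACE2, a protease related to beta-secretase, had 612, 227 and 289 reads in OKF6 and 0, 1 and 1 reads in SCC25, 550.3-fold (95% counting interval 152 to 4549.5) lower. RIPK4, a kinase of keratinocyte differentiation, had 157, 284 and 278 reads in OKF6 and 0, 1 and 0 reads in SCC25, and C2CD2 278, 137 and 288 reads in OKF6 and 0, 0 and 0 reads in SCC25. The zinc finger genes PRDM15 and ZBTB21 were at 0 in all SCC25 libraries, against 63 to 86 and 24 to 78 reads in OKF6. The interferon-induced GTPase MX1 and the sterol exporter ABCG1 lie in the same stretch. On one side lay SH3BGR (adjusted p = 0.268), GET1, which was lower but present (-1.16 ± 0.39, adjusted p = 0.0455), and HMGN1 (-0.46, adjusted p = 0.0722) and BRWD1 (0.021, adjusted p = 0.973), which were not called. On the other side SLC37A1 was lower but present (26, 64 and 35 reads in OKF6 and 7, 4 and 8 reads in SCC25) and PDE9A was higher (0, 0 and 1 reads in OKF6 and 46, 58 and 35 reads in SCC25). All 8 genes were again at 0 or 1 reads in each SCC25 library with YBX1 deleted. No other stretch in the genome outside chromosome Y reached more than 5 such neighbours.

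Most interferon-stimulated genes were not called, and the share called higher was close to that of all genes. Of 63 measured members 14 were called higher (22.2% against 18.9% of all genes) and 2 lower (3.17% against 11.3%), with a median of 0.71. The count of higher calls depended on single libraries, at 6 without SCC25 replicate 2 and 22 without OKF6 replicate 1. ISG15, a ubiquitin-like modifier, was at log2 CPM values of 4.48, 4.53 and 4.23 in OKF6 and 6.62, 6.87 and 5.47 in SCC25 (1.90 ± 0.34, adjusted p = 0.0023), and the antiviral membrane protein IFITM1 at 4.92, 3.88 and 3.44 in OKF6 and 7.03, 7.48 and 5.79 in SCC25 (2.68 ± 0.47, adjusted p = 0.00193). IFITM2 (3.72 ± 0.35, adjusted p = 3.93e-05) and the transcription factor IRF1 (2.15 ± 0.27, adjusted p = 0.000224) rose as well. IFI6 was at 8.98, 6.35 and 5.64 in OKF6 and 9.25, 9.12 and 9.54 in SCC25, and its OKF6 replicate 1 lay within 0.5 of SCC25. The 2 genes called lower were SAMD9 (-2.98 ± 0.88, adjusted p = 0.026), in 1 of the 6 leave-one-out fits, and MX1, which had 228, 148 and 26 reads in OKF6 and 0, 0 and 0 reads in SCC25, at least 31.6-fold lower.

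The promoters of 3 of these genes are shown because MX1 was lower and ISG15 and IFITM1 higher, while all hold a match to the motif searched. MX1 is 1 of the 8 neighbouring 21q22 genes with at most 1 read in any SCC25 library, so its low level is shared with its neighbours. RefSeq promoters (GRCh38.p14, 250 bases before to 50 after the start, plus strand of the gene) were searched on both strands for TTTCNNTTTC, the core of the interferon-stimulated response element; capitals mark the matches, which are printed as the reverse complement where they lie on the other strand. It was present in 3.57% of all 35116 promoters and in 30 of 48 matched promoters of the list, in 6 of 10 genes called higher, in both called lower and in 22 of 36 not called.
MX1 (chr21:41420308-41420607, plus): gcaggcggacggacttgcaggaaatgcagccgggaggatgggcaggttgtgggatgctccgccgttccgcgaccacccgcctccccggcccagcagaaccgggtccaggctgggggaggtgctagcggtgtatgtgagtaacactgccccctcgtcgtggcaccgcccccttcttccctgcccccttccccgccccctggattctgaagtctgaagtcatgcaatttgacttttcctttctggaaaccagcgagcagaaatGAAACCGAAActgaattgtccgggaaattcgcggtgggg
ISG15 (chr1:1013247-1013546, plus): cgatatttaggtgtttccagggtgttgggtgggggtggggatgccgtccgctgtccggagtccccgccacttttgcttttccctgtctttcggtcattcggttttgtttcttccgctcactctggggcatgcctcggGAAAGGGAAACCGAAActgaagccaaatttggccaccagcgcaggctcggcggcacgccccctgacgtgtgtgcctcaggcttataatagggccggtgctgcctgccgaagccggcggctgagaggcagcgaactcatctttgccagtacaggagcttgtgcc
IFITM1 (chr11:313790-314089, plus): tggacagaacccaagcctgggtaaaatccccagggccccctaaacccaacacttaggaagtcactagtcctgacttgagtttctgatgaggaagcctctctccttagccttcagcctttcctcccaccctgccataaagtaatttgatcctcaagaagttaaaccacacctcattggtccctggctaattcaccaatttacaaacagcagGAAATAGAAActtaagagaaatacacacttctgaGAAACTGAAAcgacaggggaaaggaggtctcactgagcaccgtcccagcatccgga
A match describes letters and does not show a bound site.

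Among genes of antigen presentation, 7 of 17 measured were higher (41.2% against 18.9% of all genes) and 1 lower (5.88% against 11.3%), or 3 lower without OKF6 replicate 1, with a median of 1.08, or 0.56 with genes near 0 reads at their bound. B2M, the light chain of MHC class I, was at log2 CPM values of 9.76, 9.06 and 9.03 in OKF6 and 10.34, 10.51 and 10.55 in SCC25 (1.19 ± 0.23, adjusted p = 0.00356), and the class I transactivator NLRC5 had 4, 4 and 2 reads in OKF6 and 46, 40 and 44 reads in SCC25. The protease CTSS rose by 3.75. HLA-DQB1, a class II chain, had 36, 56 and 18 reads in OKF6 and 0, 2 and 0 reads in SCC25. HLA genes vary between people, and the part of each line's alleles in these read counts was not tested. Of 38 measured cytokine and chemokine genes 7 were higher (18.4% against 18.9% of all genes) and 8 lower (21.1% against 11.3%). But 3 were higher without SCC25 replicate 2 and 4 without OKF6 replicate 3. The lower calls numbered 3 to 5 without OKF6 replicate 3 or any 1 SCC25 library. CSF3, granulocyte colony-stimulating factor, was at 8.43, 7.51 and 8.02 in OKF6 and 2.20, 2.63 and 3.18 in SCC25 (-5.32 ± 0.67, adjusted p = 0.000258), and the interleukin 1 family members IL1B (-1.98 ± 0.56, adjusted p = 0.0222) and IL36RN (15, 64 and 70 reads in OKF6 and 2, 2 and 0 reads in SCC25) were lower. The prostaglandin synthase PTGS2 (3.35 ± 0.52, adjusted p = 0.000972) and the adhesion molecule ICAM1 (3.25 ± 0.69, adjusted p = 0.00539) were higher.

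The study centres on PI3K signalling and YBX1, so the genes of these pathways were followed. Of 68 measured genes of the PI3K-AKT-mTOR core 11 were higher (16.2%) and 7 lower (10.3%), close to the shares over all genes, and the median was 0.011. The lower calls numbered 13 without OKF6 replicate 1 and 4 without SCC25 replicate 2 or 3. AKT1 was at log2 CPM values of 8.06, 7.36 and 7.36 in OKF6 and 9.08, 9.05 and 9.28 in SCC25 (1.54 ± 0.23, adjusted p = 0.000718). The regulatory subunit PIK3R1 was at 7.29, 6.51 and 6.05 in OKF6 and 3.55, 3.99 and 3.04 in SCC25 (-3.09 ± 0.38, adjusted p = 0.000211), and the catalytic subunit PIK3CD differed by 1.36 ± 0.34, adjusted p = 0.0126. Translational repressor EIF4EBP1 rose (1.79 ± 0.39, adjusted p = 0.00647), as did the mTORC2 subunit MAPKAP1 (1.40 ± 0.20, adjusted p = 0.000501).

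Of 23 genes that the study names in these lines, all measured, 10 were called higher and 2 lower; this list was chosen by the study on these samples and is no independent evidence of direction. Without SCC25 replicate 1, 6 were called higher, and 1 was called lower without any 1 library other than OKF6 replicate 1. YBX1 itself was at 6.76, 8.15 and 8.37 in OKF6 and 6.74, 6.31 and 6.62 in SCC25 (-1.21 ± 0.39, adjusted p = 0.0375). Its OKF6 replicate 1 lay just above the highest SCC25 library, and the gene was called in 1 of the 6 leave-one-out fits. The cell adhesion molecule CADM1 was at 5.26, 4.82 and 5.31 in OKF6 and 0.50, 1.18 and 1.49 in SCC25 (-4.08 ± 0.32, adjusted p = 1.31e-05). MAPKAPK2, a kinase downstream of p38, rose (2.77 ± 0.18, adjusted p = 5.29e-06), and the IGF-binding protein IGFBP3 had 10, 13 and 2 reads in OKF6 and 410, 189 and 92 reads in SCC25. EGFR was at 6.00, 7.67 and 5.80 in OKF6 and 6.85, 6.94 and 6.68 in SCC25 and was not called (adjusted p = 0.59). Of 12 measured EGF family genes 2 were higher (16.7% against 18.9% of all genes) and 1 lower (8.33% against 11.3%), the ligand EREG (-3.17 ± 0.61, adjusted p = 0.00326). The family had 3 lower genes without OKF6 replicate 1, and 1 higher without OKF6 replicate 3 or any 1 SCC25 library.

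Developmental signalling genes included ligands with at most a few reads in OKF6. Of 45 measured TGF-beta, BMP and activin genes 13 were higher (28.9% against 18.9% of all genes) and 5 lower (11.1% against 11.3%), or 3 lower without SCC25 replicate 1 or 3. BMP7 had 1, 0 and 2 reads in OKF6 and 45, 78 and 45 reads in SCC25, BMP4 1, 0 and 0 reads in OKF6 and 18, 10 and 42 reads in SCC25 and the BMP antagonist GREM1 1, 0 and 0 reads in OKF6 and 12, 33 and 29 reads in SCC25. TGFB2 had 16, 0 and 31 reads in OKF6 and 250, 190 and 396 reads in SCC25. The 5 lower genes were the receptors and mediators TGFBR1, BMPR2 (-1.01), SMAD2 and SMAD4 (-0.89) and the target ID1, which was called in 2 of the 6 leave-one-out fits. Of 42 measured Wnt genes 12 were higher (28.6% against 18.9% of all genes) and 6 lower (14.3% against 11.3%). WNT3A had 1, 0 and 1 reads in OKF6 and 32, 67 and 25 reads in SCC25, WNT10B 0, 0 and 1 reads in OKF6 and 19, 38 and 15 reads in SCC25 and the receptor FZD10 5, 0 and 15 reads in OKF6 and 105, 78 and 88 reads in SCC25, and NKD2, which binds Dishevelled, 0, 0 and 0 reads in OKF6 and 115, 95 and 45 reads in SCC25. WNT5A fell (-2.87 ± 0.43, adjusted p = 0.000791) and AXIN2, a feedback target of canonical Wnt signalling, had 6, 6 and 6 reads in OKF6 and 2, 0 and 0 reads in SCC25. Of 28 Notch genes 6 were higher and 6 lower (21.4% each, against 18.9% and 11.3% of all genes). Among them 3 were higher without SCC25 replicate 3, and 2 or 3 lower without OKF6 replicate 2 or any 1 SCC25 library. Of 32 YAP/TAZ-TEAD targets 8 were higher and 6 lower, of 31 ERK feedback and immediate early genes 6 and 3, and of 15 IGF genes 3 and 1, or 2 lower without OKF6 replicate 1.

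Cell cycle genes were read against the 18.9% of all genes called higher and the 11.3% called lower. Of 43 S phase genes 5 were higher (11.6%) and 6 lower (13.95%), and of 53 G2/M genes 7 (13.2%) and 7 (13.2%), with medians of 0.042 and 0.082. Without OKF6 replicate 1 the S phase genes called higher numbered 10, and without SCC25 replicate 1 the G2/M genes called lower numbered 4. The proliferation marker MKI67 was at log2 CPM values of 7.07, 7.59 and 7.31 in OKF6 and 6.34, 6.67 and 6.79 in SCC25 (-0.72 ± 0.20, adjusted p = 0.018), called in 4 of the 6 leave-one-out fits. Of 32 measured G1 regulators 4 were higher and 8 lower, and 9 were higher without OKF6 replicate 1. The kinase CDK4 rose (1.96 ± 0.34, adjusted p = 0.00172) and its relative CDK6 fell (-1.83 ± 0.24, adjusted p = 0.00035), and cyclin D2, CCND2, was at 8.85, 9.08 and 9.34 in OKF6 and 4.81, 5.64 and 6.02 in SCC25 (-3.60 ± 0.32, adjusted p = 2.92e-05), opposite to CCND1. The retinoblastoma gene RB1 differed by -1.24 ± 0.27, adjusted p = 0.0057, and not after removal of the GC trend (adjusted p = 0.0642). The inhibitor CDKN1C had 5, 0 and 19 reads in OKF6 and 130, 132 and 111 reads in SCC25. Of 43 measured p53 targets 9 were lower (20.9% against 11.3%) and 3 higher, with 5 higher without OKF6 replicate 1 and 6 without OKF6 replicate 2. GADD45A was at 7.97, 7.46 and 7.32 in OKF6 and 4.35, 4.14 and 4.19 in SCC25 (-3.36 ± 0.23, adjusted p = 6.6e-06), and CCNG2 (-2.82 ± 0.34, adjusted p = 0.000168) and MDM2 (-0.99 ± 0.18, adjusted p = 0.00264) fell, whereas CDKN1A, which encodes p21, was at 8.08, 8.70 and 8.47 in OKF6 and 8.87, 8.24 and 8.31 in SCC25 (adjusted p = 0.909).

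In 3 metabolic groups more genes were called lower than higher. Of 39 measured genes of cholesterol and fatty acid synthesis 16 were lower (41.0% against 11.3%) and 6 higher, with a median of -0.64, and 17 and 5 after removal of the GC trend. The higher calls numbered 3 without SCC25 replicate 1 or 3. HMGCS1 was at log2 CPM values of 9.74, 9.91 and 10.41 in OKF6 and 8.45, 9.02 and 7.99 in SCC25 (-1.53 ± 0.30, adjusted p = 0.00364). Squalene epoxidase SQLE (-1.02) and the desaturase FADS1 (-2.46 ± 0.21, adjusted p = 2.41e-05) fell. Of 49 measured NRF2 targets and xenobiotic enzymes 16 were lower (32.7%) and 9 higher, with 10 lower without SCC25 replicate 2 or 3 and 14 higher without OKF6 replicate 1. TXNRD1 (-1.55 ± 0.33, adjusted p = 0.00534), the cystine transporter SLC7A11 (-1.71 ± 0.22, adjusted p = 0.000329) and NFE2L2, the gene of NRF2 (-1.80 ± 0.42, adjusted p = 0.00869), fell, and KEAP1, its inhibitor, rose (1.73 ± 0.23, adjusted p = 0.000334), as did the glutathione synthesis subunit GCLM (2.52 ± 0.36, adjusted p = 0.000573). Of 44 glycolysis and hypoxia genes 10 were lower (22.7%) and 1 higher, with 5 higher without OKF6 replicate 1 and 0 without OKF6 replicate 2 or any 1 SCC25 library. The glucose transporters SLC2A3 (-2.87 ± 0.61, adjusted p = 0.00569) and SLC2A1 (-1.08), hexokinase HK2 (-1.10), LDHA (-1.16) and the lactate exporter SLC16A3 (-2.42 ± 0.34, adjusted p = 0.000545) were among them, and GAPDH was not called (adjusted p = 0.221).

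Of 40 measured ATF4 and amino acid genes 10 were higher (25.0% against 18.9% of all genes) and 4 lower (10.0% against 11.3%). Without SCC25 replicate 1 or 2, 6 were higher. The neutral amino acid transporter SLC1A4 rose (2.41 ± 0.30, adjusted p = 0.000236) and SLC7A5, the large neutral amino acid transporter, fell (-2.19 ± 0.31, adjusted p = 0.000549). Of 76 nuclear genes of the respiratory chain 20 were higher (26.3%) and 3 lower, the lower calls running from 1, without OKF6 replicate 3 or SCC25 replicate 1, to 8, without OKF6 replicate 2. NDUFA8, a complex I subunit, was at 6.70, 5.66 and 6.39 in OKF6 and 9.04, 9.23 and 9.08 in SCC25 (2.86 ± 0.25, adjusted p = 2.28e-05). The count of higher genes moved from 10, 11 and 13, without SCC25 replicate 2, 1 and 3, to 31, without OKF6 replicate 1, and was 16 higher and 8 lower after removal of the GC trend. Of 78 ribosomal protein genes 14 were higher (17.9%) and 9 lower (11.5%), close to the shares over all genes. This order turned to 5 higher and 15 lower after removal of the GC trend. The higher calls numbered 5 without SCC25 replicate 1 or 2 and 8 without SCC25 replicate 3, and the lower calls 16 without OKF6 replicate 1 and 5 without SCC25 replicate 3. Of 70 ribosome biogenesis genes 13 were higher (18.6%) and 5 lower (7.14%), and 4 and 8 after removal of the GC trend. The higher calls among them numbered 7 without SCC25 replicate 2, and the lower calls 2 without OKF6 replicate 2 or SCC25 replicate 1 and 8 without OKF6 replicate 1. RPL17 and RPL21, called lower, are uncertain, since 82.4% of the 3' end pieces of RPL17 and every piece of RPL21 aligned equally well elsewhere. Smaller families were read against the 18.9% of all genes called higher and the 11.3% called lower. Of 15 S100 genes 1 was higher (6.67%) and 2 lower (13.3%), and of 19 claudin and tight junction genes 2 (10.5%) and 3 (15.8%). Of 14 cadherin and catenin genes 2 were higher and 2 lower (14.3% each), and of 12 oncofetal genes 4 (33.3%) and 1 (8.33%). Without OKF6 replicate 1, 5 cadherin and catenin genes were lower and 2 S100 genes higher, and the other moves in these families were by 1 gene.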

How the data were processed

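Libraries were 3' end RNA libraries (QuantSeq 3' FWD, single-end). Per the study's methods, reads were trimmed with Cutadapt, aligned to hg38 with HISAT2 and counted with featureCounts; versions and the strand setting of the counting are not given in the sources used here, so genes that overlap on opposite strands, among the genes named AKT1, CCND1, CHCHD10, FADD, GAPDH, HLA-DQB1, HMGCS1, HOXA7, ICAM1, INPPL1, MAPKAP1, PIK3CD, RIPK4, SELENOP, SLC15A3, SLC16A3, SLC2A1 and THBS2, cannot be told apart from their partners. The authors deposited log2 CPM (counts scaled to library size) of 12995 genes. In each library every value corresponded to a whole number of reads plus 0.5 within 0.01 read, so the reads were recovered. A read count of 0 allows up to 3 reads, and a fold against 3 libraries at 0 was taken against that floor per library; intervals and floors cover counting error only. Depth per library was 4075290 to 6118501 reads on genes.

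The deposited log2 values of the 9 OKF6, SCC15 and SCC25 libraries of the cell line table were fitted with limma 3.58.1 in R 4.3.3 (lmFit, eBayes with variance trend), contrasting SCC25 with OKF6, with two-sided p-values adjusted by Benjamini-Hochberg across the table and called below 0.05. Differences are on the deposited scale, which understates changes of low genes. The fit was also run on simulated reads with the same spread in every line and no GC trend. That run cannot measure its errors under the unequal spread and GC trend seen here. GC trends were removed per library with a loess curve of span 0.3, an alternative chosen after seeing the data, and 3' end uniqueness was checked by aligning 75-base pieces with minimap2 2.31. Alternatives were other scalings, other variance models, a filter on low values, log2(CPM + 1), the replicate number as a block, the 2 lines alone and leaving out each library. 6 columns of per-sample values were not used. Nothing in the labels says that replicates were separate cultures.

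Members and gene lists were chosen with earlier results of these data known. Genes were named as the 12 largest differences each way among well expressed genes without overlap, up to 4 called and 2 uncalled members per list, the genes the study names, 12 anchor genes, and the 6 strongest each way among genes at 3 reads or fewer in one line. HOX genes, the chromosome stretches and further list members named in the text were chosen after their values were seen. Genes of chromosome Y and XIST, and a few further genes, are not reported here.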

Additional observations from a re-analysis of the deposited data

How the results depend on the processing

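The number of genes called was 3923, with 2450 higher and 1473 lower. No called gene named in the text changed direction under any alternative run. Leaving out 1 library at a time gave 2631 to 5331 genes called, 1701 to 3278 higher and 930 to 2053 lower; the smallest counts came without SCC25 replicate 2 and the highest without OKF6 replicate 1, and leaving out SCC25 replicate 3 gave 981 lower. A threshold of 0.01 gave 2206 called, 1466 higher and 740 lower. With the GC trend removed and OKF6 replicate 1 left out, an alternative chosen after seeing the data, 2279 genes were lower. Quantile normalization moved the median difference of all genes from 0.13 to -0.05 and the share of calls that were higher from 62.5% to 52.2%, and removal of the GC trend to 55.6%. The replicate numbers did not pair the samples (correlations of same-numbered deviations -0.047, 0.159 and -0.153), and with the replicate block 3708 genes were called, 2361 higher and 1347 lower.

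The calls of YBX1, IFI6, SAMD9 and ITGA3 held in 1 of the 6 leave-one-out fits, those of TGM1, HOXC4, GET1, IL1B and ID1 in 2, those of SNAI1, LOXL2 and KRT15 in 3, those of ZNF750, SPRR1B, SMAD4 and MKI67 in 4 and those of PPL, DSP, TGFBR1 and PIK3CD in 5. Their adjusted p reached at most 0.166 (GET1), 0.13 (HOXC4) and 0.127 (YBX1), the highest among these genes. The cause was not tested. After removal of the GC trend, 7 of the 203 named genes followed lost their call and 3 gained one. Besides KRT18, ITGA3 and RB1, the genes that lost it included DSP (adjusted p = 0.109), GET1 (0.0891) and IFI6 (0.0811). At this depth 479 genes had 3 reads or fewer in every library of both lines, and a difference in them was not detectable.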

Other observations

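Beyond the lists, further genes were read in one line and close to 0 in the other. Thrombospondin THBS2 had 1389, 559 and 624 reads in OKF6 and 0, 3 and 3 reads in SCC25, 418-fold (95% counting interval 192 to 1141) lower in SCC25, STEAP1B had 351, 131 and 335 reads in OKF6 and 1, 1 and 1 reads in SCC25, and NDN, an imprinted growth suppressor, had 344, 140 and 97 reads in OKF6 and 0, 1 and 1 reads in SCC25. Of the STEAP1B 3' end, 11.8% of pieces aligned equally well elsewhere. Altogether 613 genes were at 3 reads or fewer in every OKF6 library but not in SCC25, and 214 in every SCC25 library but not in OKF6.

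A run of 5 neighbouring genes on chromosome 19 (hg38, 56393656 to 56588911), ZNF582-AS1, ZNF583, ZNF667-AS1, ZFP28 and ZNF470, was at 3 reads or fewer in every SCC25 library. On chromosome 5 (42423439 to 42887392) the run GHR, CCDC152 and SELENOP was at 3 reads or fewer in every OKF6 library. SELENOP and CCDC152 overlap on opposite strands and may share reads, as may ZNF582-AS1 and ZNF583, which overlap on the same strand. By chromosome, the median difference was lowest on chromosomes 4 (-0.49) and 13 (-0.48) and highest on chromosomes 14 (0.43) and 9 (0.42), and after removal of the GC trend it was -0.36, -0.37, 0.43 and 0.24 on chromosomes 4, 13, 14 and 9, chromosome 9 then lying below chromosomes 15 (0.27) and 1 (0.24).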
